A study of Mus musculus with 6 samples.

Results

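The neutrophil genes were 10 genes chosen by name, of 49568 rows in the deposited table of normalized counts, and all 10 were present. They comprised 7 genes of mature neutrophils (S100a8, S100a9, Retnlg, Ly6g, Csf3r, Cxcr2 and Il1b) and 3 genes of the granule programme of immature neutrophils (Camp, Ngp and Ltf). They were read in whole right lung lobes of 6-week-old C57BL/6 mice, either Col6a1-/- (lacking a functional gene for a chain of the matrix protein collagen VI) or wildtype, with no treatment named in either group. The lung vessels had been flushed with saline before the lobes were frozen, and each library pooled RNA from 2 animals of 1 genotype, so that 12 animals gave 3 libraries per genotype. The labels give neither the sex of the animals nor how the Col6a1 allele was made. Values of single libraries are given in the order of replicates 1, 2 and 3 of a genotype. In bulk tissue, fewer neutrophils and less of a transcript per neutrophil cannot be told apart.

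Neutrophils are short-lived granulocytes made in the bone marrow. Their granule proteins are transcribed in a fixed order during maturation, first those of the primary (azurophil) granules, then those of the secondary (specific) granules, and these messages are largely lost before the cell enters the blood, whereas S100a8, S100a9 and the chemokine and growth factor receptors stay high in the circulating cell. The lung normally holds a pool of neutrophils inside its capillaries.

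Libraries held 28055414 to 37904878 reads in genes. Col6a1, the targeted gene, had 9344 to 10616 normalized counts in the Col6a1-/- libraries and 18393 to 22331 in the wildtype libraries, lower in every knockout library but not absent. Lung identity was clear in every library, with the surfactant gene Sftpc at 443498 to 583425 normalized counts. Col6a1-/- replicate 2 stood apart from the other 5 libraries in Xist, the transcript of the inactive X chromosome, at 28.4 normalized counts against 10486 to 16430. Transcripts of 4 Y-linked genes, averaged relative to that library, stood at 72.5% and 51.1% in Col6a1-/- replicates 1 and 3 and at 0.347%, 3.35% and 51.5% in wildtype replicates 1, 2 and 3, so that sex was partly confounded with genotype. The leukocyte gene Ptprc (CD45) was also lowest in Col6a1-/- replicate 2, at 2724 normalized counts, against 3694 to 4660 in the other libraries.

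No neutrophil gene was called different between the genotypes, and in each the libraries of both genotypes overlapped. In the test across all genes (limma on log2 normalized counts, Benjamini-Hochberg adjusted over 16879 tested genes, threshold 0.05), 11 genes were called, 0.0652% of those tested, and 0 of the 8 neutrophil genes that reached the expression filter was among them. At an unadjusted p under 0.05 there was 1 of the 8, S100a8, where 20.3% of all tested genes were. edgeR and DESeq2 on the recovered reads also called 0. Ly6g and Camp did not reach a normalized count of 10 in 3 libraries and were not tested. No member had libraries of one genotype entirely above those of the other, whereas 24.9% of tested genes did. In the authors' deposited table, 7 of the 10 genes had an adjusted p and 0 were under 0.05, where 5.05% of all genes with an adjusted p were. That table and DESeq2 on the recovered reads each called 742 genes from the same counts, so they are not separate results.

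The pattern the genes did share was one of libraries. All 7 mature genes lay above every wildtype library in Col6a1-/- replicates 1 and 3, and within or below the wildtype range in Col6a1-/- replicate 2. The first arrangement held for each of the 6 tested mature genes and for 18.3% of all tested genes. In Col6a1-/- replicate 2, 5 of the 7 mature genes had their lowest value of the 6 libraries, as did 16.9% of tested genes. This arrangement was seen in the values first and counted afterwards, so the counts are a description.

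**Figure D1:**
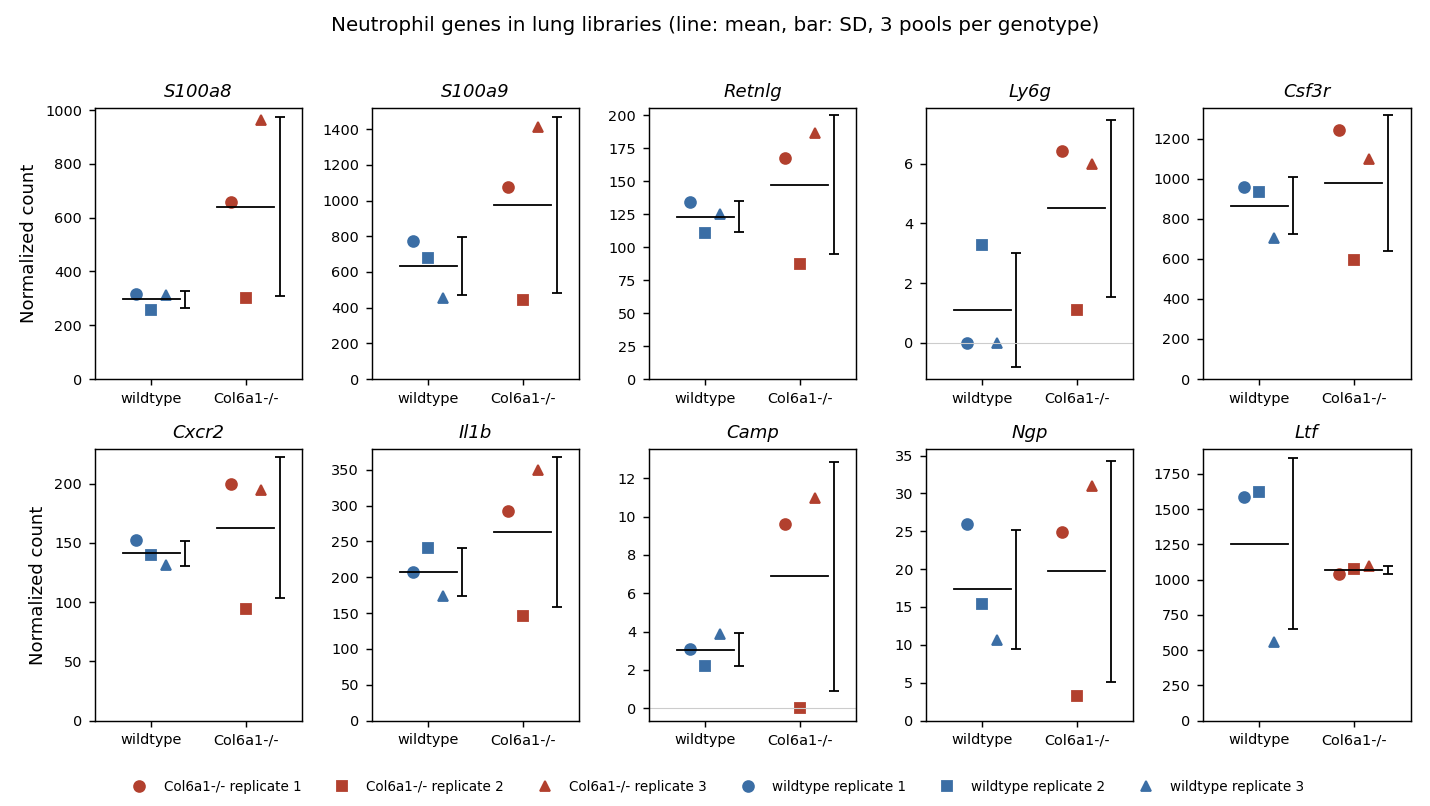
Normalized counts (vertical axes, each from 0 or just below it) of the 10 neutrophil genes in 3 wildtype (blue) and 3 Col6a1-/- (red) libraries, with circles, squares and triangles for replicates 1, 2 and 3, a line for the mean and a bar for the SD. In the 7 mature genes the red circle and triangle lie above all blue points. The red square is the lowest point in 5 of the 7 and lies within the blue range in S100a8 and Ly6g. Ltf has its lowest point in wildtype replicate 3, at 559.

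S100a8 and S100a9 encode the subunits of calprotectin, a calcium-binding and metal-sequestering heterodimer that fills the neutrophil cytosol and acts as an alarm signal when released. Both genes lie on chromosome 3 (GRCm38), S100a8 (ENSMUSG00000056054.9) at 90668978 to 90670035 on the plus strand and S100a9 (ENSMUSG00000056071.12) at 90692632 to 90695721 on the minus strand, 22.6 kb apart. The stretches just upstream of these genes are shown first, because they are the pair with the highest levels per length in wildtype lungs. They are RefSeq sequence (GRCm38.p6), cut to the bases that precede both the RefSeq and the GENCODE start, 5′ to 3′ in the direction of transcription, with capitals for matches to TTNNGNAA, a core of the sites of C/EBP factors, and to GAGGAAG, a core of the sites of PU.1, on either strand.
S100a8, chr3:90668821-90668977, plus strand: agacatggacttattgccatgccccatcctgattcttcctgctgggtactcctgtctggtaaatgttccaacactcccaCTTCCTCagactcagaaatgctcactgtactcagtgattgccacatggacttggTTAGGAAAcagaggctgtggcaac
S100a9, chr3:90695722-90695971, minus strand: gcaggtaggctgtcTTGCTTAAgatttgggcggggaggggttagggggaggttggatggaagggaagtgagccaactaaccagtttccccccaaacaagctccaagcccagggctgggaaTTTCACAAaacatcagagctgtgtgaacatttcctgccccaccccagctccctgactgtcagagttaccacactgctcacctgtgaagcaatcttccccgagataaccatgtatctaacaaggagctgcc

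S100a8 had normalized counts of 658, 301 and 964 in the Col6a1-/- pools against 316, 258 and 314 in the wildtype pools. Col6a1-/- replicate 2 lay within the wildtype range and the other 2 Col6a1-/- libraries lay far above it. The means were 641 ± 332 and 296 ± 32.8 (SD, n = 3 libraries each), a ratio of 2.17, and the log2 fold change was 0.96 ± 0.33 (SE, limma adjusted p 0.154). This was the largest difference among the 8 tested members. Without Col6a1-/- replicate 2 the log2 fold change of S100a8 was 1.43 and it was called higher (limma adjusted p = 0.00797), the only member called in that fit, in which 0.281% of tested genes were called.

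S100a9 had normalized counts of 1078, 442 and 1409.5 in the Col6a1-/- pools against 771, 678 and 455 in the wildtype pools. The lowest value of each genotype was nearly the same, in Col6a1-/- replicate 2 and wildtype replicate 3. Means were 976 ± 492 and 635 ± 162 (SD, n = 3), and the difference on the log2 scale was 0.50 ± 0.35 (SE, limma adjusted p 0.447). The log2 fold change of S100a9 was 0.99 without Col6a1-/- replicate 2 (adjusted p 0.0684) and 0.16 without Col6a1-/- replicate 3 (adjusted p 0.878). As both subunits enter one protein, their balance was read within each library as the ratio of normalized counts per kb of the longest transcript. The S100a8 to S100a9 ratio was 0.636, 0.709 and 0.713 in the Col6a1-/- pools against 0.427, 0.396 and 0.718 in the wildtype pools. The 3 Col6a1-/- libraries and wildtype replicate 3 were thus alike, and wildtype replicates 1 and 2 lay lower.

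Csf3r (ENSMUSG00000028859.14, chromosome 4, 126024550 to 126044440, plus strand) encodes the receptor for granulocyte colony-stimulating factor, the main growth factor of the lineage. Its normalized counts were 1241, 596 and 1099 in the Col6a1-/- pools against 959, 934 and 704 in the wildtype pools. The highest and the lowest values both came from Col6a1-/- lungs. The means were 978 ± 339 and 866 ± 141 (SD, n = 3), and the log2 fold change was 0.12 ± 0.24 (SE, limma adjusted p 0.8). Cxcr2 (ENSMUSG00000026180.8, chromosome 1, 74153989 to 74161246, plus strand) encodes the chemokine receptor that draws neutrophils out of the marrow and into tissue. Its normalized counts were 199.8, 94.0 and 195 in the Col6a1-/- pools against 153, 139 and 132 in the wildtype pools. Wildtype values were tight and Col6a1-/- values straddled them. The means were 163 ± 59.7 and 141 ± 10.6 (SD, n = 3), and the log2 fold change was 0.13 ± 0.26 (SE, limma adjusted p 0.807).

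The 2 receptor genes stood in a similar proportion in every library. The Cxcr2 to Csf3r ratio per kb was 0.184, 0.18 and 0.203 in the Col6a1-/- pools against 0.182, 0.171 and 0.214 in the wildtype pools, with means of 0.189 ± 0.012 and 0.189 ± 0.022. The S100a8 to Csf3r ratio was less even, at 3.71, 3.53 and 6.13 in the Col6a1-/- pools against 2.30, 1.93 and 3.12 in the wildtype pools, so that S100a8 per receptor transcript was higher in each Col6a1-/- library than in each wildtype library, Col6a1-/- replicate 2 included. The ratios of S100a9, Retnlg, Cxcr2, Il1b and Ltf to Csf3r overlapped between the genotypes. The ratios were formed after the values had been seen and were not tested. How many other genes separate the genotypes as a ratio to Csf3r was not counted. Without any ratio, 24.9% of tested genes did. With 3 libraries against 3, a two-sided exact permutation test cannot give a p below 0.1.

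**Figure D2:**
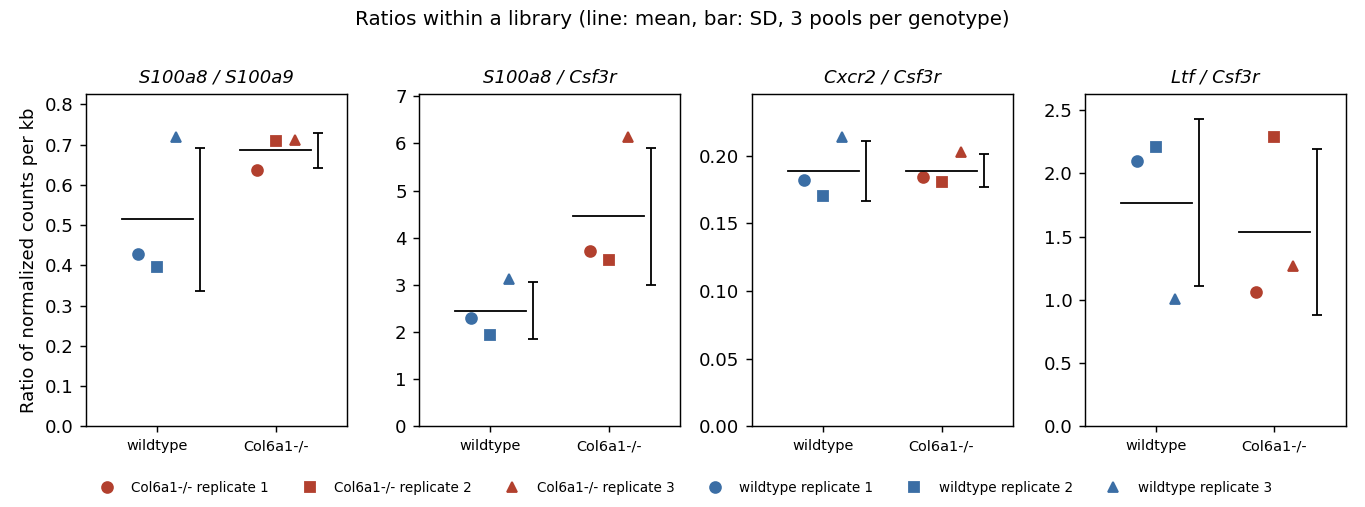
Ratios of normalized counts per kb of transcript (vertical axes, from 0) within each of 3 wildtype (blue) and 3 Col6a1-/- (red) libraries, with circles, squares and triangles for replicates 1, 2 and 3, a line for the mean and a bar for the SD. The ratio of Cxcr2 to Csf3r has equal means of 0.189, and the ratio of S100a8 to Csf3r is at least 3.53 in Col6a1-/- libraries and at most 3.12 in wildtype libraries.

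Retnlg (ENSMUSG00000022651.6, chromosome 16, 48872621 to 48874496, plus strand) encodes a secreted resistin-like protein of mouse neutrophils. Its normalized counts were 168, 87.5 and 187 in the Col6a1-/- pools against 134, 111 and 125 in the wildtype pools. As for Cxcr2, the wildtype libraries fell between the extremes of the Col6a1-/- libraries. The log2 fold change was 0.19 ± 0.26 (SE, limma adjusted p 0.705). Ly6g (ENSMUSG00000022582.4, chromosome 15, 75155240 to 75159126, plus strand) encodes the surface antigen by which mouse neutrophils are gated. It was near the limit of detection, with 8, 1 and 6 reads in the Col6a1-/- pools against 0, 3 and 0 in the wildtype pools. The libraries at 0 allow up to 3 reads, or 3.12 and 2.90 normalized counts in wildtype replicates 1 and 3. Over the 3 libraries of each genotype, 15 reads stood against 3. Scaled by library size the ratio was 4.60 (exact 95% interval 1.30 to 24.8), which covers counting error only and not the spread between animals. Ly6g belongs to a cluster of related Ly6 genes, and no source used here says how reads shared between them were counted.

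Il1b (ENSMUSG00000027398.13, chromosome 2, 129364570 to 129371139, minus strand) encodes the precursor of interleukin-1 beta, an inflammatory cytokine that monocytes and macrophages make as well. Its normalized counts were 292, 147 and 349.9 in the Col6a1-/- pools against 208, 240.4 and 173 in the wildtype pools. Col6a1-/- replicate 3 was highest and Col6a1-/- replicate 2 lowest, as for S100a9 and Retnlg, whereas Csf3r and Cxcr2 were highest in Col6a1-/- replicate 1. The means were 263 ± 105 and 207 ± 33.6 (SD, n = 3), and the log2 fold change was 0.26 ± 0.28 (SE, limma adjusted p 0.615).

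The granule genes divided into a rare pair and an abundant gene with a pattern of its own. Camp encodes the cathelicidin precursor of an antimicrobial peptide, Ngp encodes neutrophilic granule protein, a member of the cystatin and cathelicidin superfamily, and Ltf encodes the iron-binding protein lactoferrin, which glandular and airway epithelium secretes as well. All 3 lie on chromosome 9, Camp (ENSMUSG00000038357.10) at 109847379 to 109849617 on the minus strand, Ngp (ENSMUSG00000032484.8) at 110419747 to 110423012 and Ltf (ENSMUSG00000032496.7) at 111019271 to 111042767, both on the plus strand. Their upstream stretches are shown to set Camp and Ngp beside Ltf, which parted from them in level, with the same source, cut and capitals as above.
Camp, chr9:109849618-109849706, minus strand: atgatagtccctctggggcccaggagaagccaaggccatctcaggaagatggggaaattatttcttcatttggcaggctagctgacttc
Ngp, chr9:110419558-110419746, plus strand: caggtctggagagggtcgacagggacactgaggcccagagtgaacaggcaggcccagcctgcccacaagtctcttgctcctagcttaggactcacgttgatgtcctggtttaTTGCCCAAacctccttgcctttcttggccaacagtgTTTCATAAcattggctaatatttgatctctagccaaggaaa
Ltf, chr9:111019042-111019270, plus strand: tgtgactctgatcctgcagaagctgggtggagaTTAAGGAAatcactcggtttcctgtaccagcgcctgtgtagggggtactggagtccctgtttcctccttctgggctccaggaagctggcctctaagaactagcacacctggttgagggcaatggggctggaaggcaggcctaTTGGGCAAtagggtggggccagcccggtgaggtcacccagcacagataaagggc

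The stretch of Ngp held 2 matches to TTNNGNAA and that of Ltf also held 2, while that of Camp held none. Over the whole RefSeq windows (250 bases before to 50 after a start), 8 of the 11 windows of the 10 members held TTNNGNAA, as did 40.7% of all 32851 windows, and 4 held GAGGAAG, as did 13.6% of all windows. Ly6g had 2 overlapping windows, so that the 11 are not separate sequences. Camp and Cxcr2 held no match to either set of letters. A match is a description of letters and no evidence of binding.

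Camp had 12, 0 and 11 reads in the Col6a1-/- pools against 3, 2 and 4 in the wildtype pools. The 0 in Col6a1-/- replicate 2 allows up to 3 reads, or 3.28 normalized counts there, which is within the wildtype range of 2.20 to 3.87. Summed over libraries, 23 reads in Col6a1-/- stood against 9 in wildtype lungs, which scaled to a ratio of 2.35 (exact 95% interval 1.05 to 5.77, counting error only). Ngp had normalized counts of 24.9, 3.28 and 31.0 in the Col6a1-/- pools against 26.0, 15.4 and 10.6 in the wildtype pools. Col6a1-/- replicate 2 held 3 reads of Ngp, compared with 31 in each of the other 2 Col6a1-/- libraries. The log2 fold change was -0.18 ± 0.68 (SE, limma adjusted p 0.908), while the ratio of means was 1.14. The estimate therefore had a different sign on the log and on the linear scale. On the log2 scale it was 0.74 without Col6a1-/- replicate 2 and 0.14 without wildtype replicate 1.

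Ltf had normalized counts of 1041, 1074 and 1095 in the Col6a1-/- pools against 1583, 1625 and 559 in the wildtype pools. The Col6a1-/- libraries agreed to within 1.05-fold and the wildtype libraries spanned 2.91-fold, the reverse of the spread of every other tested member. Its value in Col6a1-/- replicate 2 showed none of the reduction seen in Camp and Ngp. The log2 fold change was -0.077 ± 0.33 (SE, limma adjusted p 0.92). Without wildtype replicate 3 Ltf was called lower, at -0.58 with an adjusted p of 0.00806, in a fit that called 8.26% of tested genes. Leaving out wildtype replicate 1 or 2 turned the estimate positive, at 0.17 and 0.19. Per kb of transcript, Ltf in wildtype lungs stood at 458 ± 220 normalized counts against 14.2 ± 6.42 for Ngp and 4.04 ± 1.11 for Camp (SD, n = 3).

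**Figure D3:**
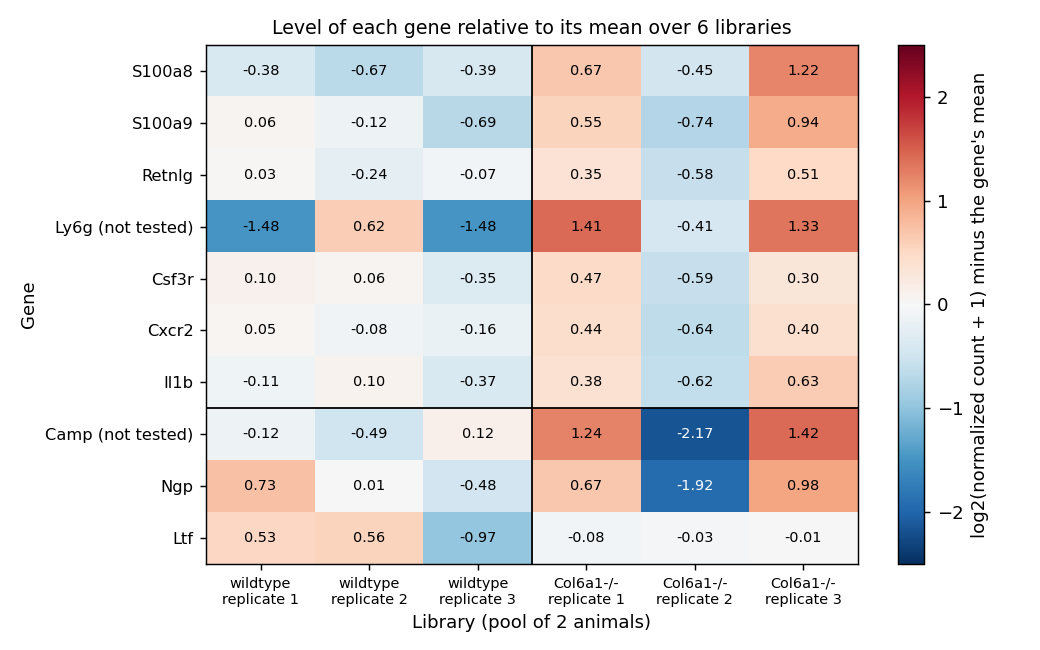
Each cell gives log2(normalized count + 1) of 1 gene in 1 library minus the gene's mean over the 6 libraries, with red above and blue below the mean; mature genes are above the horizontal line and granule genes below it. In the column of Col6a1-/- replicate 2 the values are negative for all 10 genes, from -2.17 in Camp to -0.033 in Ltf.

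Levels of different members were compared per kb of the longest transcript in wildtype lungs. S100a9 was highest at 1223 ± 313 normalized counts per kb, followed by S100a8 at 594 ± 65.8, Ltf at 458 ± 220, Csf3r at 249 ± 40.4, Retnlg at 208 ± 19.6, Il1b at 153 ± 24.7, Cxcr2 at 46.4 ± 3.48, Ngp at 14.2, Camp at 4.04 and Ly6g at 1.17. Libraries of S100a8 and Ltf, of Ltf and Csf3r, of Csf3r and Retnlg and of Camp and Ly6g overlapped, so these neighbours in the order do not differ beyond their spread. The cytosolic S100 messages and the receptors were thus far above the granule messages Camp and Ngp in these lungs.

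The spread among Col6a1-/- libraries was wide for these genes. For the 6 tested mature genes the median ratio of the highest to the lowest Col6a1-/- library was 2.25, against 1.22 over all tested genes. Among wildtype libraries the same medians were 1.29 and 1.20. The fold range within Col6a1-/- was 3.20 for S100a8 and 3.19 for S100a9 and between 2.08 and 2.39 for Retnlg, Csf3r, Cxcr2 and Il1b. Median log2 fold changes were 0.23 for the 6 tested mature genes and 0.0098 for all tested genes. All 6 had a positive estimate with all libraries, and each was larger without Col6a1-/- replicate 2, at 0.52 for Retnlg, 0.44 for Csf3r, 0.48 for Cxcr2 and 0.64 for Il1b (adjusted p of 0.121, 0.126, 0.123 and 0.1). Without Col6a1-/- replicate 1 the estimates of Csf3r and Cxcr2 were negative, at -0.083 and -0.057. Without Col6a1-/- replicate 3 those of Retnlg and Cxcr2 were negative, at -0.02 and -0.04, and that of Il1b was 0.011 (adjusted p 0.992). That of Csf3r was -0.02 without wildtype replicate 3.

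**Figure D4:**
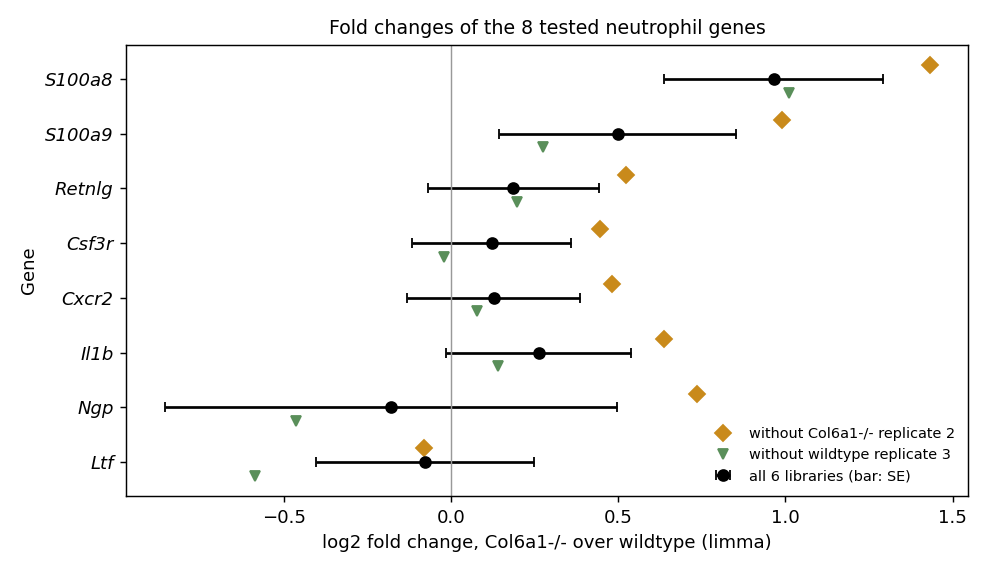
Log2 fold changes of Col6a1-/- over wildtype (horizontal axis, limma) for the 8 tested genes, with black points and SE bars for all 6 libraries, orange diamonds without Col6a1-/- replicate 2 and green triangles without wildtype replicate 3. S100a8 moves from 0.96 to 1.43 without Col6a1-/- replicate 2, and Ltf from -0.077 to -0.58 without wildtype replicate 3.

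Other genes of neutrophils were read from lists chosen for their roles, and the limma test described above called 0 of them (0.0652% of all tested genes). Other settings called up to 11 of them, with library quality weights, which called 3225 genes over the whole table. DESeq2 on the recovered reads called 4 of them and 742 genes over the whole table. Among 18 other genes of mature neutrophils, 12 were tested, 7 with a higher and 5 with a lower estimate, and 1 had an unadjusted p under 0.05. That gene was Fpr2, a receptor for formylated peptides, at 271, 277 and 319 normalized counts in the Col6a1-/- pools against 171, 198 and 252 in the wildtype pools (log2 fold change 0.49, SE 0.16, limma adjusted p 0.14). Its libraries did not overlap, and unlike the tested mature members its lowest Col6a1-/- value was not in replicate 2. Next by p were Cxcr1, a chemokine receptor related to Cxcr2, at a log2 fold change of -0.76, and Il1r2, the decoy receptor of interleukin-1, at -0.51 (adjusted p of 0.404 and 0.415).

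Of 9 further genes of secondary and tertiary granules, 7 were tested, with 4 higher and 3 lower estimates. Lcn2, the siderophore-binding lipocalin 2, which airway epithelium also secretes, had 2844, 3517 and 3309 normalized counts in the Col6a1-/- pools against 3965, 4130 and 4143 in the wildtype pools. All Col6a1-/- libraries lay below all wildtype libraries, and the log2 fold change was -0.34 (SE 0.096, limma adjusted p 0.114). In the authors' deposited table Lcn2 was called lower, with a log2 fold change of -0.31 and an adjusted p of 0.0447. Cd177 and Mmp9, of the neutrophil surface and the gelatinase granule, had log2 fold changes of -0.21 and -0.16 (adjusted p of 0.623 and 0.691).

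Messages of the primary granules, made by promyelocytes in the marrow, were almost undetected. Mpo, Elane, Ctsg and Ms4a3 had at most 8 reads in any library. Prtn3, proteinase 3, was the 1 tested gene of 5, with 15, 30 and 18 reads in the Col6a1-/- pools against 19, 19 and 10 in the wildtype pools (limma adjusted p 0.751). It was highest in Col6a1-/- replicate 2, where all 10 members lay below their mean log2 level over the 6 libraries.

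Among ligands that recruit or expand neutrophils, Csf3 and Il17a had at most 1 read in any library. Of 6 tested ligand genes, 3 had a higher and 3 a lower estimate. Ppbp, platelet basic protein, the precursor of a CXCR2 ligand stored in platelets, had 594, 351 and 589 normalized counts in the Col6a1-/- pools against 239, 248 and 200.4 in the wildtype pools. Every Col6a1-/- library exceeded every wildtype library, and the log2 fold change was 1.12 ± 0.20 (SE, limma adjusted p 0.0693). Ppbp was called higher in the authors' deposited table (log2 fold change 0.87, adjusted p 4.78e-06) and by limma without Col6a1-/- replicate 2 (1.37, adjusted p 0.0045). Cxcl5 and Cxcl1, ligands of the same receptor made by epithelium and stroma, were low, at 9.86 and 16.3 normalized counts in wildtype lungs, with adjusted p of 0.582 and 0.588.

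In the interleukin-1 pathway, 6 of 10 genes had a higher and 4 a lower estimate. The sensor gene Nlrp3 had a log2 fold change of -0.65, the inflammatory caspase gene Casp4 one of 0.34 and the adaptor gene Pycard one of 0.19 (limma adjusted p of 0.238, 0.244 and 0.391). Of 5 receptor and adaptor genes for S100A8/A9, Ly96, the MD-2 partner of Toll-like receptor 4, had 111, 127 and 127 normalized counts in the Col6a1-/- pools against 48.8, 46.1 and 92.9 in the wildtype pools. All Col6a1-/- libraries lay above all wildtype libraries, with wildtype replicate 3 nearest to them. The log2 fold change was 1.02 (SE 0.26, limma adjusted p 0.101). In the authors' deposited table Ly96 was called higher, with a log2 fold change of 0.57 and an adjusted p of 0.0241. DESeq2 on the recovered reads gave 0.95 at an adjusted p of 0.0241. Cd14 and Myd88 had log2 fold changes of -0.084 and -0.13 (adjusted p of 0.654 and 0.437).

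Lists of genes that neutrophils share with other leukocytes and with endothelium leaned to lower estimates, which 8159 of all 16879 tested genes had. The NADPH oxidase, which makes superoxide for microbial killing, had 6 of 6 genes with a lower estimate (median -0.31 on the log2 scale, and -0.15 without Col6a1-/- replicate 2, again 6 of 6 lower). The centred mean of the list was -0.029, -0.38 and 0.0091 in the Col6a1-/- pools against 0.20, 0.23 and -0.027 in the wildtype pools, so that Col6a1-/- replicates 1 and 3 lay beside wildtype replicate 3. Its genes Ncf1, Rac2 and Cybb had -0.36, -0.34 and -0.32 (limma adjusted p of 0.172, 0.219 and 0.267). Leukocyte arrest on endothelium had 8 of 8 lower (median -0.32, and -0.17 without wildtype replicate 1). Without Col6a1-/- replicate 2 or without wildtype replicate 3 it had 7 of 8 lower (medians of -0.25 and -0.43). With all libraries, Selp, the P-selectin of platelets and endothelium, had -0.58. The integrin beta 2 gene Itgb2 had -0.45 and the integrin alpha L gene Itgal -0.46 (limma adjusted p of 0.113 for Selp, then 0.116 and 0.145). Itgb2 was called lower in the authors' deposited table, with an adjusted p of 0.0282. Of 5 tested genes for granulocyte transcription factors, 4 had higher estimates, and Spi1, which encodes PU.1, had -0.31 (adjusted p 0.303), Cebpb 0.16 and Gfi1 0.14 (adjusted p of 0.466 and 0.807).

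Markers of platelets and red cells were also high in Col6a1-/- replicates 1 and 3, but were not low in Col6a1-/- replicate 2 relative to wildtype. Estimates were above 0 for 8 of 8 platelet genes (median 0.40 on the log2 scale) and for 7 of 7 tested red cell genes (median 0.89), none called by limma, while 6 of the red cell genes were called higher in the authors' deposited table. With each gene centred on its mean over libraries, the platelet list averaged 0.33, -0.13 and 0.47 in the Col6a1-/- pools against -0.21, -0.087 and -0.37 in the wildtype pools. Treated alike, the 6 tested mature neutrophil genes averaged 0.48, -0.60 and 0.67 in the Col6a1-/- pools against -0.042, -0.16 and -0.34 in the wildtype pools. In both lists Col6a1-/- replicate 3 was highest, followed by Col6a1-/- replicate 1, and wildtype replicate 3 was the lowest wildtype library, while Col6a1-/- replicate 2 lay within the wildtype range for platelets and below it for the neutrophil genes. The red cell list averaged 0.56, 0.026 and 0.74 in the Col6a1-/- pools against -0.39, -0.59 and -0.35 in the wildtype pools, so that Col6a1-/- replicate 2 lay above all wildtype libraries. Without Col6a1-/- replicate 2 the platelet median was 0.64, and the red cell median was 1.12. Without Col6a1-/- replicate 3 they were 0.26, with 7 of 8 platelet genes higher, and 0.70. The part of blood left in the vessels in the values of the neutrophil genes was not tested. Summed over the 8 red cell markers, normalized counts were 62131 to 102399 in Col6a1-/- and 41783 to 47830 in wildtype libraries. For the 8 platelet markers the sums were 1133 to 1603 in Col6a1-/- and 903 to 1131 in wildtype libraries.

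The monocyte list had the arrangement of the mature neutrophil genes, at 0.20, -0.30 and 0.18 in the Col6a1-/- pools against -0.084, -0.019 and 0.026 in the wildtype pools. Col6a1-/- replicates 1 and 3 lay above every wildtype library and Col6a1-/- replicate 2 below them all, over a narrower range. The tested other mature neutrophil genes were arranged alike, at 0.23, -0.57 and 0.27 against -0.073, 0.10 and 0.048 in wildtype. So was the interleukin-1 pathway list, at 0.11, -0.27 and 0.13 against 0.034, -0.025 and 0.017 in wildtype. The part of monocytes in the values of the neutrophil genes was not tested. The 5 genes of all leukocytes stood at 0.084, -0.37 and 0.11 in the Col6a1-/- pools against 0.082, 0.035 and 0.06 in the wildtype pools. Col6a1-/- replicates 1 and 3 were again highest, by little, and only Col6a1-/- replicate 2 stood far from the rest. Of the 10 monocyte genes, 4 had higher and 6 lower estimates (8 and 2 without Col6a1-/- replicate 2), with summed levels of 47121 to 55491 normalized counts in Col6a1-/- and 55743 to 61834 in wildtype libraries, most of it from Ace, which lung endothelium expresses. The alveolar macrophage list had 10 of 10 lower estimates (median -0.29), and levels of 16990 to 20150.2 in Col6a1-/- and 21669 to 23459 in wildtype libraries. Genes of dividing cells were lowest in Col6a1-/- replicate 2, at -0.50, and highest in wildtype replicate 3, at 0.56. Of the 9 markers of eosinophils, basophils and mast cells, 4 were tested, Epx was at 0 reads in every library (which allows 2.41 to 3.29 normalized counts), and the sums were 99.5 to 111 in Col6a1-/- and 88.1 to 108 in wildtype libraries.

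**Figure D5:**
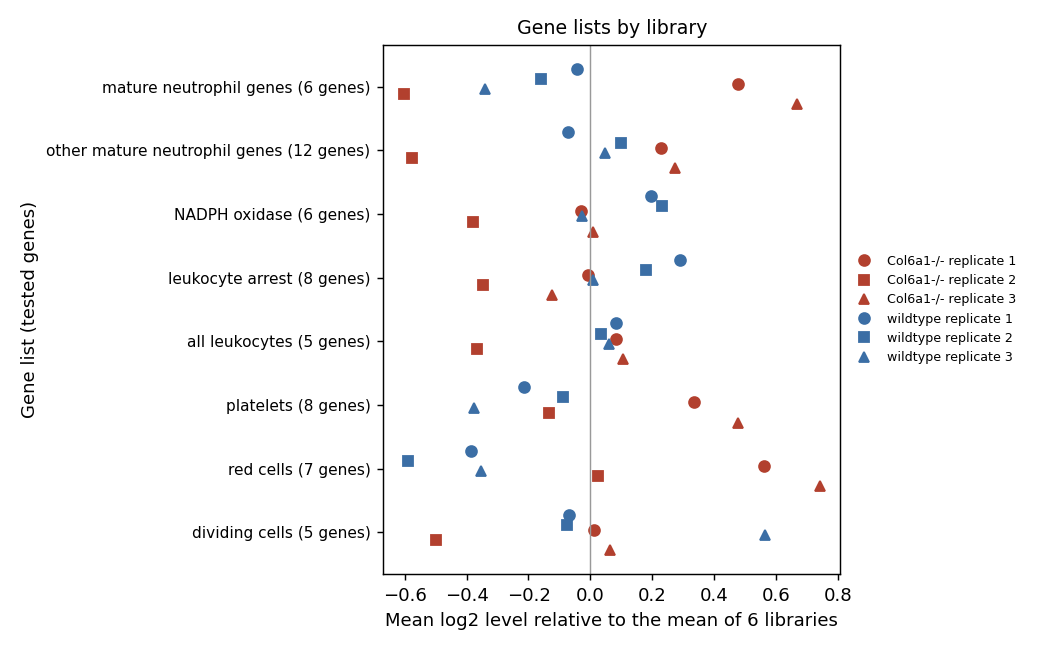
Mean log2 level of the tested genes of 8 lists in each library, relative to the mean of the 6 libraries (horizontal axis), with red for Col6a1-/- and blue for wildtype and with circles, squares and triangles for replicates 1, 2 and 3. The red square (Col6a1-/- replicate 2) is the lowest point of the mature neutrophil, other mature neutrophil, NADPH oxidase, leukocyte arrest, all-leukocyte and dividing cell lists, but lies between the genotypes for red cells.

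Likeness to the mature genes was measured, as a description with no test, by the correlation over the 6 libraries with the mean of the standardized log2 levels of the 6 tested mature genes. The 6 points share the genotype contrast and the low values of Col6a1-/- replicate 2. Ngp and Camp were close to the mature genes, at a Pearson's r of 0.89 and 0.92, and Ltf was not, at 0.16. The value of Camp rests on 0 to 12 reads per library. Each mature gene was set against the other tested mature genes. Here S100a8 stood at 0.82 and Ly6g at 0.69, both below Ngp and Camp, and the rest at 0.90 to 0.96. Among 14133 non-member genes with a mean of at least 50 normalized counts, the 10 most alike were Fam151b, Igfbp3, Wdr43, Gimap4, Gm11346, Gm11627, Klra4, Rtp4, Gm10687 and Gm37691, with r from 0.98 to 0.96. Klra4, a lectin-like receptor of natural killer cells, had 85.1, 27.3 and 91.0 normalized counts in the Col6a1-/- pools against 54.0, 43.9 and 50.3 in the wildtype pools. Igfbp3, a binding protein of insulin-like growth factors, had 5845, 3327 and 5939 and then 4926, 4334 and 4156 in the same order. None of the 10 was on the neutrophil lists. Of 50 list genes that could be ranked, 4 reached an r of 0.9, against 0.587% of all candidates, and they were Il1a, Clec4d, Slfn4 and Mmp8, of which Slfn4 had 293, 78.7 and 263 in the Col6a1-/- pools against 152, 188 and 147 in the wildtype pools.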

How the data were processed

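RNA of 6 lung libraries, 3 per genotype, was read from the deposited table of normalized counts. The values are a signal that the authors normalized with DESeq2, as the deposited table's name states, and they behave as reads per gene divided by 1 size factor per library. Per the submitters' processing notes, which state neither roles nor order, the genome build was GRCm38.p5 and the software was STAR 2.5.2b, Trimmomatic 0.36, DESeq2 1.16.1, featureCounts, Subread 1.5.0p3 and R 3.4.1. Annotation release and strand setting were not given in the sources used here. What the word New in the header of wildtype replicate 2 means is unknown. The authors' deposited table comparing the genotypes holds p-values, a log2 fold change, and a mean and a test statistic that were treated as scores. Its log2 fold changes for Ppbp and Ly96 were smaller than those of DESeq2 on the recovered reads at nearly equal adjusted p. The deposited sizes are therefore not to be set against the limma values.

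Dividing by 1 step per library gave whole reads for 100% of values (to within 1e-06). For Col6a1-/- replicate 3 the step is so close to 1 that it could not be tested on low values alone. Reads served for depth, the counts printed for rare genes and the count models. Of 49568 rows, 16879 had at least 10 normalized counts in at least 3 libraries and were tested with limma 3.58.1 (trended variance, in R 4.3.3) after adding 1 and taking log2, two-sided and Benjamini-Hochberg adjusted over all of them. The added 1 understates fold changes of low genes. The script was tested on simulated data. SE is that of the limma coefficient, SDs are over 3 libraries, and libraries are separate pools of animals. Alternatives used edgeR 4.0.16 and DESeq2 1.42.0 among others. Genes were named by a rule: the 10 members, the primary granule genes, the 3 genes of smallest p in each list of related genes, and the 10 most alike. The list genes Il1a, Clec4d, Slfn4, Mmp8, Ace, Epx, Csf3 and Il17a were named after their values were seen. The members, lists and tests were chosen with earlier results of these data known. Coordinates and transcript lengths are from GENCODE M21 (GRCm38), promoters from RefSeq (GRCm38.p6), in which all 10 members matched by symbol. Motif letters were searched on both strands.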

Additional observations from a re-analysis of the deposited data

How the results depend on the processing

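Over all genes, limma called 11 with the settings reported, 93 without the filter on low values, 7 with a filter at 50, 26 with median centring (3 higher and 23 lower, against 3 and 8 as reported), 3225 with library quality weights, 0 with a covariate for the male share per pool (1306 at an unadjusted p under 0.05), 81 after removing a length and GC trend, and 0 to 1383 when 1 library was left out, while DESeq2 called 742 and edgeR 13. Without Col6a1-/- replicate 3 and without wildtype replicate 1 limma called 0 genes (1979 and 1902 at an unadjusted p under 0.05) and without wildtype replicate 2 it called 2. Among the neutrophil genes 0 were called with the settings reported, 1 (S100a8, log2 fold change 1.24, adjusted p 0.009) with library quality weights, and 0 to 1 when a library was left out. Of the genes of the related lists, 0 were called as reported, 1 (Ppbp) without the filter or without Col6a1-/- replicate 2, 4 without wildtype replicate 3, 4 by DESeq2 and 11 with library quality weights. Of 135 values of single members under 17 alternatives, 118 kept their direction and their side of the threshold, 3 passed it and 14 changed sign. Ngp was 0.041 with library quality weights, 1.84 with the male share as a covariate, 0.22 by edgeR and 0.20 by DESeq2, and Ltf was 0.92 with the male share. With 1 library left out, the log2 fold change ran from 0.59 to 1.43 for S100a8, from 0.16 to 0.99 for S100a9, from 0.011 to 0.64 for Il1b, from -0.020 to 0.52 for Retnlg, from -0.083 to 0.44 for Csf3r, from -0.057 to 0.48 for Cxcr2, from -0.71 to 0.74 for Ngp and from -0.58 to 0.19 for Ltf; the cause was not tested. The male share was partly confounded with genotype. With it as a covariate S100a8 was 1.70, S100a9 1.76, Retnlg 0.71, Csf3r 0.85, Cxcr2 0.75 and Il1b 1.11 (limma adjusted p from 0.314 to 0.666). At an unadjusted p under 0.05 there were 6 members in that fit, where 1306 of all 16879 tested genes were. Ltf and Ngp (adjusted p of 0.636 and 0.64) were among the 6, while Retnlg and Cxcr2 (0.666 and 0.659) were not. S100a8, S100a9 and Il1b kept a higher estimate in all 17 alternatives, that of Il1b down to 0.011. Ngp fell below the filter at 50 and has no value there.

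The labels give pools of both genotypes the same numbers without naming a shared animal or batch. With the replicate block 7 genes were called and 0 members, and the deviations of same-numbered pools correlated at -0.136, 0.106 and -0.00588, so that the numbers were not taken as pairs; not every pool correlated best with its own number. Depth limits Ly6g and Camp, with at most 12 reads per library, and 3 libraries per genotype limit every comparison.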

Other observations

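Set against Ptprc, the gene of the pan-leukocyte antigen CD45, S100a8 was higher in each Col6a1-/- library than in each wildtype library. Its ratio of normalized counts per kb was 1.63, 1.27 and 2.68 in the Col6a1-/- pools against 0.985, 0.727 and 0.851 in the wildtype pools. The ratios of S100a9, Retnlg, Csf3r, Cxcr2, Il1b and Ltf to Ptprc overlapped between the genotypes. For Csf3r the ratio was 0.439, 0.361 and 0.437 in the Col6a1-/- pools against 0.428, 0.376 and 0.273 in the wildtype pools, so that the low Csf3r count of Col6a1-/- replicate 2 went with a low Ptprc count. These ratios were formed after the values had been seen and were not tested. The number of other genes that separate the genotypes as a ratio to Ptprc was not counted, and without any ratio 24.9% of tested genes did.

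Lactoferrin and lipocalin 2 messages, both also products of airway epithelium, did not share one pattern. The Ltf to Lcn2 ratio per kb was 0.183, 0.153 and 0.166 in Col6a1-/- replicates 1, 2 and 3, 0.200 and 0.197 in wildtype replicates 1 and 2, and 0.068 in wildtype replicate 3, in which Ltf alone of the pair was low.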
